A study of Mus musculus with 4 samples.

Results

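The hepatocytes described here were 2366 of the 38072 barcodes in a pooled single-cell RNA table of mouse liver, and they were chosen by their counts of 3 genes, Hsd3b5, Elovl3 and Serpina1e. A barcode was selected on several counts of unique molecular identifiers (UMIs, each standing for 1 captured RNA molecule). It needed 500 or more UMIs, 200 or more genes and under 20% mitochondrial UMIs. It needed 10 or more UMIs of Alb, Apoa1, Apoa2 and Ttr together, and at most 1 UMI of 12 genes of leukocytes, endothelium, fibroblasts and erythroid precursors (gated hepatocytes, 16069 barcodes). It then had to hold 2 or more UMIs of Hsd3b5, Elovl3 and Serpina1e together. Limits on other hepatocyte programmes kept Sds, Hal and Cyp2f2 below 2 UMIs, Saa1 and Saa2 below 5, Afp below 3 and Glul below 1% of UMIs. Barcodes that passed everything are called members. The 6157 barcodes that met every condition except the 3-gene sum are called marker-low hepatocytes.

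The study sampled mouse liver while hepatocellular carcinoma, induced by genes, developed, with 1 sample per time. The samples were HCC-NL, normal liver at week 0, and the tumour samples HCC-ES at week 4, HCC-MS at week 8 and HCC-LS, given as week 10 in its own label and as week 12 in the text on the series. The inducing genes, how they were delivered, the strain, the sex and the age of the animals are not given in the labels used here. Livers were dissected and digested, and red cells were lysed before capture, per the labels. The barcodes carry a suffix from 1 to 4, called libraries 1 to 4 here. The labels do not pair a suffix with a week, so the libraries were treated as unlabelled, no weeks were compared, and no p-value is given. Differences between libraries may be of week, tumour, animal or preparation, which cannot be told apart. Intervals are exact 95% intervals and cover counting error only.

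The libraries stood apart in how many members they held. Library 1 held 1694, library 2 held 21, library 3 held 581 and library 4 held 70, which is 71.7% (69.9 to 73.5), 0.478% (0.296 to 0.73), 13.9% (12.9 to 15) and 1.36% (1.06 to 1.72) of their gated hepatocytes, or 14.7% over all. Members of libraries 2 and 4 were very deep barcodes, with a median of 14875 and 9456 UMIs, against 1734 in library 1 and 1159 in library 3. Marker-low hepatocytes of libraries 2 and 4 had medians of 3996 and 3488. Of the members, 2 share a barcode sequence with a member of another library, and sharing with barcodes that are not members was not counted. Among all 36150 barcodes that passed the cell filter, 1241 share a sequence across libraries. The sets differ in size, so these counts cannot be set against each other. The doublet score passed 0.25 in 14 of 2366 members (0.592%) and in 618 of the 36150 barcodes. The caller that gave the score marked only 2 of the 36150 itself. The median mitochondrial share of a member's UMIs was 0%, 1.57%, 3.25% and 0.407% in libraries 1 to 4.

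Hepatocytes divide their work along the liver lobule. Cells near the portal vein make urea and glucose, cells near the central vein make glutamine and clear drugs, and some genes peak between them. A second layer of liver expression follows the pulsed growth hormone pattern of male mice, acting through STAT5b. Hsd3b5, a keto-steroid reductase, Elovl3, a fatty acid elongase that is also under circadian control, and most major urinary protein genes belong to that male-biased programme. Serpina1e is 1 of the mouse's tandem copies of the gene for alpha-1-antitrypsin, the main plasma inhibitor of neutrophil elastase. These genes are known for high levels in the mature adult male liver.

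Serpina1e carried the gate, so its upstream sequence is shown with that of its 4 copies, whose levels behaved differently. The sequences are from RefSeq's table for build GRCm38.p6, which is not the build the labels name, and no count was joined to them by position. All 5 lie on the minus strand of chromosome 12, at chr12:103956960-103957079, chr12:103863625-103863744, chr12:103738200-103738319, chr12:103904962-103905081 and chr12:103773634-103773753, in that order, upstream of the annotated start of each gene. Elovl3 is not in that table, while Hsd3b5 and all 5 Serpina1 copies are. Each stretch is 120 bases long, 5′ to 3′. The capitals mark the longest run that all 5 share, 55 bases.
Serpina1e: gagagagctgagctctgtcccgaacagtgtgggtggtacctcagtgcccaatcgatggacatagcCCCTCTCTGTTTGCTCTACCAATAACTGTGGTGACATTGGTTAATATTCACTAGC
Serpina1a: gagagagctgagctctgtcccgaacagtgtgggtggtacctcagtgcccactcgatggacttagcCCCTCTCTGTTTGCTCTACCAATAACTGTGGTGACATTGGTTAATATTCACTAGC
Serpina1b: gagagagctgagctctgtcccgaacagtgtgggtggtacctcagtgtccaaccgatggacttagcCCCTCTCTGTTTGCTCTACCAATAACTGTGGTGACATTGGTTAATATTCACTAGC
Serpina1c: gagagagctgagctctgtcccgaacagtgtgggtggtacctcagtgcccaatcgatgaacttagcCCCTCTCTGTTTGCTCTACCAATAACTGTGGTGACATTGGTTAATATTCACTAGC
Serpina1d: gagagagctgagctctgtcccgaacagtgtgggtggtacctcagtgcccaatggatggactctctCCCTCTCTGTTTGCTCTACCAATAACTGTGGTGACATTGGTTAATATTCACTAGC
Against the Serpina1e stretch, 118 of 120 bases were identical in Serpina1a, 117 in Serpina1b, 118 in Serpina1c and 114 in Serpina1d. The shared run ends 62 bases before the annotated start of Serpina1e and 0 to 11 bases before the starts of the other 4. The letters GTTAAT, an arm of the palindrome bound by HNF1, occur within the run on 1 or the other strand, and 6.43% of all 250-base upstream windows in the table hold them. TTCNNNGAA, the letters bound by STAT5, were in none of the 5 windows of 250 bases nor in the one of Hsd3b5, and 7.02% of all windows hold them on either strand. A match here is only a description of letters.

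Members were Serpina1e cells first. Of the 2366, 2354 held a Serpina1e UMI, 1114 an Elovl3 UMI and 562 an Hsd3b5 UMI. Serpina1e gave 94.1% of the marker UMIs, and 1039 members held Serpina1e alone. Hsd3b5 and Elovl3 by themselves reached the sum of 2 in 706 members. The share of members with Hsd3b5 or Elovl3 was 68.5% in library 1, 33.3% in library 2, 26.5% in library 3 and 7.14% in library 4. A name from Hsd3b5 and Elovl3 thus fitted the members of library 1, while in libraries 2, 4 and library 3, where 427 of 581 members held Serpina1e alone, the gate was mostly passed without Hsd3b5 or Elovl3.

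In the summed counts of members, Serpina1e stood at 12541, 507, 2102 and 381 CPM (a gene's UMIs scaled to a common total of summed UMIs) in libraries 1 to 4. Library 1 was the highest and library 4 the lowest, and none of the intervals overlapped (12426 to 12657, 429 to 595, 2017 to 2189.9 and 342 to 422). The library 2 value rests on 21 barcodes. The 19 of them with an H19 UMI had 413 CPM, within the interval of library 4, and the few without had 4201. The order of libraries 2 and 4 thus rests on few barcodes. Elovl3 was at 590.2, 30.2, 131 and 9.57 CPM and Hsd3b5 at 186, 10.1, 54.2 and 0. Library 4 members had no Hsd3b5 UMI, which allows up to 3.19 CPM. These values chose the members and are a description. Just outside the threshold, the 298 barcodes of library 3 with a marker sum of 1 had 1370 CPM of Mup7 and 5129 of Gstp1, and the 206 with a sum of 2 had 3345 and 9298. In library 4 the 134 barcodes with 1 marker UMI had 5125 CPM of H19 and the 29 with 2 had 6467. In library 1, 15 members had a sum of exactly 2, against 206 in library 3.

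**Figure D1:**
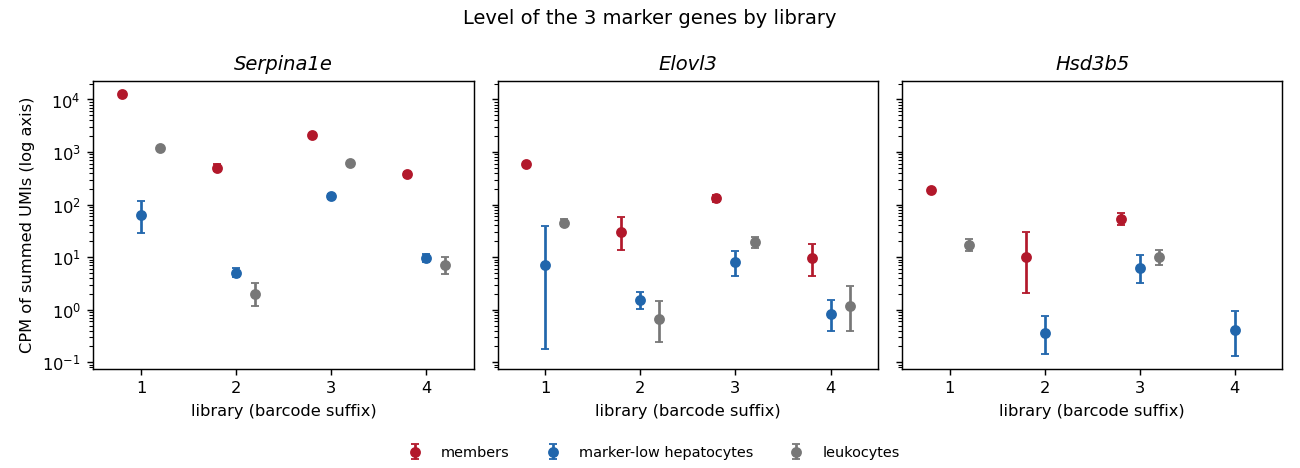
Level of Serpina1e, Elovl3 and Hsd3b5 in members, marker-low hepatocytes and leukocytes of each library, in CPM of summed UMIs on a log axis, with exact 95% Poisson intervals. Groups with no UMI are not drawn. Members are the highest for Serpina1e in each library by the rule itself, and leukocytes of libraries 1 and 3 also hold the markers.

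The markers were also found in leukocytes, which should lack them. Free RNA and barcodes that hold a leukocyte and a hepatocyte cannot be told apart there. Leukocytes were barcodes with 5 or more UMIs of 6 leukocyte genes, and they held Serpina1e at 1182, 2.02, 625 and 7.14 CPM in libraries 1 to 4. To compare at 1 depth, each barcode was thinned to 1000 UMIs and shallower ones were left out. At that depth 97.2% (96.2 to 97.9) of the gated hepatocytes within the other limits held 2 marker UMIs in library 1, 0.211% (0.0777 to 0.46) in library 2, 30.2% (26.9 to 33.7) in library 3 and 0.533% (0.266 to 0.951) in library 4. The unthinned shares were 98.3%, 0.662%, 46.2% and 2.96%, and 103, 336, 517 and 303 barcodes were left out. Leukocytes reached 2 marker UMIs in 14.9% (13.1 to 16.9) of barcodes in library 1 and 8.63% (7.18 to 10.3) in library 3. Their unthinned medians were 1732 and 1823 UMIs, against 1745 and 1216 in those hepatocytes. In libraries 2 and 4 no thinned leukocyte reached 2, with upper bounds of 0.201% and 0.35%. The intervals of leukocytes and hepatocytes overlap there for this sum of 2.

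In libraries 1 and 3 the hepatocyte shares exceeded the leukocyte shares by more than counting error. For Serpina1e alone at 1000 UMIs, the share with a UMI was 97.5% against 24.1% of leukocytes in library 1, 47.8% against 23.5% in library 3, 1.16% (0.802 to 1.63) against 0.164% (0.0338 to 0.479) in library 2 and 3.0% (2.31 to 3.83) against 0.76% (0.329 to 1.49) in library 4. Serpina1e was thus above the leukocyte share in libraries 2 and 4 as well, at a low level. For Hsd3b5 it was 17.1% against 1.29% in library 1 and 3.1% against 0.601% in library 3. Leukocytes with under 10 UMIs of the 4 hepatocyte genes, a set chosen after seeing the data, held 2 marker UMIs in 8.64% and 4.16% of barcodes in libraries 1 and 3. Leukocytes of library 3 also held urinary protein RNA, with 2838 CPM of Mup7, members 4552 and marker-low hepatocytes 1007. For Gstp1 the library 3 values were 2671, 11504 and 4188, and for Serpina1e 625, 2102 and 143. Leukocytes lay between members and marker-low hepatocytes for Mup7 and Serpina1e and below both for Gstp1. Their Elovl3 UMIs per 100 Serpina1e UMIs were 3.86 in library 1 and 3.08 in library 3, against 4.71 and 6.25 in members. The programme was not limited to members either. Hepatocytes of library 3 held back by the serum amyloid limit reached 2 marker UMIs in 73.4% (71.6 to 75.2) of barcodes, a higher share than the 30.2% within the limits, and those of the periportal gate (2 or more UMIs of Sds, Hal and Cyp2f2) in 50% (41.0 to 59.0). In library 1 the periportal gate reached 99.3%.

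**Figure D2:**
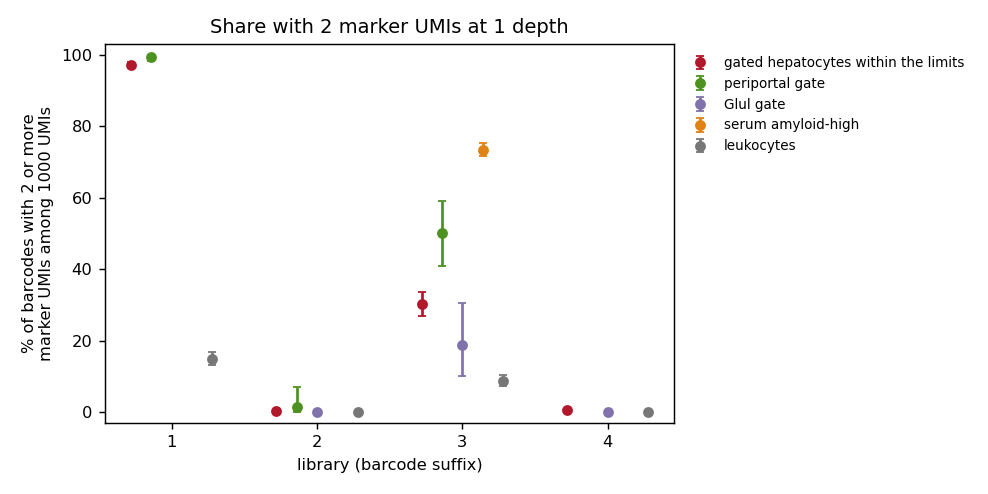
Share of barcodes with 2 or more marker UMIs after thinning each barcode to 1000 UMIs, by library and cell group, with exact 95% intervals. Nearly all library 1 hepatocytes pass, library 3 hepatocytes lie between 18.8% and 73.4% by group, and libraries 2 and 4 lie near 0.

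Members of the 4 libraries did not share 1 expression state. H19, an imprinted RNA of fetal liver, was at 0, 4674, 1632 and 6159.9 CPM, and Igf2, the fetal growth factor next to it, at 0, 816, 52.4 and 977. Library 1 members had no UMI of either gene, which allows up to 0.828 CPM, and every other library had both. Leukocytes held H19 at 0, 845, 202 and 988 CPM. Members of libraries 2 and 4 thus carried fetal genes, which goes against the label of differentiated cells there. The share of members with an H19 UMI was 0% in library 1, 90.5% in library 2, 20.7% in library 3 and 95.7% in library 4. Within library 3, members without H19 had 2439 CPM of Serpina1e and the 120 with H19 had 1278. Marker-low hepatocytes of library 3 had 184 without H19 and 88.0 with it. Serpina1e is a gene of the rule and depth was not matched in this split, so these values are a description. Proliferation genes summed to 105, 2303, 824 and 1277 CPM over 19 genes, with 7 of the 19 at 0 in library 1. Ly6d, a surface protein, was at 7.18, 756, 58.8 and 570.0 CPM, again lowest in library 1.

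Male-biased urinary protein genes were high in the libraries where Serpina1e was high. The 13 major urinary protein genes, whose products carry scent compounds in male urine, summed to 19791, 567, 14499 and 974 CPM. Mup7 was at 9548, 50.4, 4552 and 6.38 CPM, high in libraries 1 and 3 and nearly missing in 2 and 4. Mup20, known as darcin, broke this order with 2777, 366, 5103 and 871 CPM and was highest in library 3. These genes are near-identical copies, so the split of reads between them is uncertain. Among the other male-biased genes, Gstp1, a glutathione transferase, was at 29561, 1551, 11504 and 2006 CPM, Nudt7, a peroxisomal CoA hydrolase, at 3487, 111, 1852 and 383, and Selenbp2, a selenium-binding protein, at 1554, 316, 119 and 318. Of these, Selenbp2 was lowest in library 3, and Gstp1 and Nudt7 in library 2.
Among male-biased P450 genes, Cyp4a12a, a fatty acid hydroxylase, stood at 18.2, 0, 40.4 and 2.13 CPM, higher in libraries 1 and 3 than in 2 and 4. Its near copy Cyp4a12b was at 9.39, 0, 27.6 and 4.25, highest in library 3. The 0 of library 2 allows 3 counts in 297812 UMIs, and library 4 held few UMIs of it. The order of libraries 1, 2 and 4 is thus open for Cyp4a12b. Cyp2d9, a steroid hydroxylase, was at 120.1, 83.9, 104 and 123 and Cyp7b1, an oxysterol hydroxylase, at 32.3, 40.3, 78.1 and 13.8, without the split of Cyp4a12a. Of 22 female-biased genes, 11, 9, 13 and 10 were at 0 in members of libraries 1 to 4. Their sums were 72.3, 359, 119 and 210 CPM, lowest in library 1 and highest in library 2. The number at 0 also depends on total UMIs, which were fewest in library 2. Xist had no UMI and the Y-linked Ddx3y was at 26.5, 23.5, 23.0 and 47.9 CPM in members.

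The copies of Serpina1 did not move together across libraries. Serpina1a was at 375, 238, 329.8 and 238 CPM in members. Serpina1b was at 3864, 1773, 874 and 1843, Serpina1c at 558, 94.0, 309 and 68.1 and Serpina1d at 1068, 201, 283 and 279.7. Serpina1a thus spanned 238 to 375 CPM and Serpina1e, the gene of the rule, 381 to 12541, while 118 of 120 bases of the printed upstream stretches are identical. Reads of such similar genes can be shared or dropped by the counting, which was not tested. Outside the Serpina1 copies the plasma serpins were mixed. Serpina12 was at 435, 6.72, 309.6 and 11.7 CPM and Serpina3k, a kallikrein-binding serpin, at 810.2, 124, 861 and 59.6, both higher in libraries 1 and 3 than in 2 and 4. Serpinc1, which makes antithrombin, was at 73.4, 846, 186 and 413 and Serpina6, the corticosteroid carrier, at 4.97, 195, 99.2 and 194, both lowest in library 1.

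Library 1 members were also low in many plasma protein RNAs. The 23 plasma protein genes summed to 20393, 46529, 29157 and 30408 CPM. Alb itself, used by the gate, was at 1522, 4677, 3553 and 2501, and Apoe, an apolipoprotein, at 1881, 8707, 3073 and 5321. Genes of fatty acid synthesis and elongation, a list that leaves out Elovl3, summed to 827, 2905, 980.2 and 2102 CPM, with Scd1, the stearoyl desaturase, at 90, 910, 182 and 491. Acute phase genes summed to 1020.5, 8559, 7264 and 4507 CPM, led in library 3 by Mt1, a metal-binding metallothionein, at 113, 2596, 4228 and 1178. Growth hormone receptor RNA, Ghr, was at 251, 47.0, 199 and 62.7 CPM and its target Igf1 at 444, 57.1, 248 and 63.8, both higher in libraries 1 and 3 than in 2 and 4. Gm42418, a predicted gene that overlaps ribosomal RNA sequence, had the most UMIs of all genes in each of the 4 libraries, at 59254, 36785, 108151 and 26409 CPM, and its part in these differences was not tested.

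**Figure D3:**
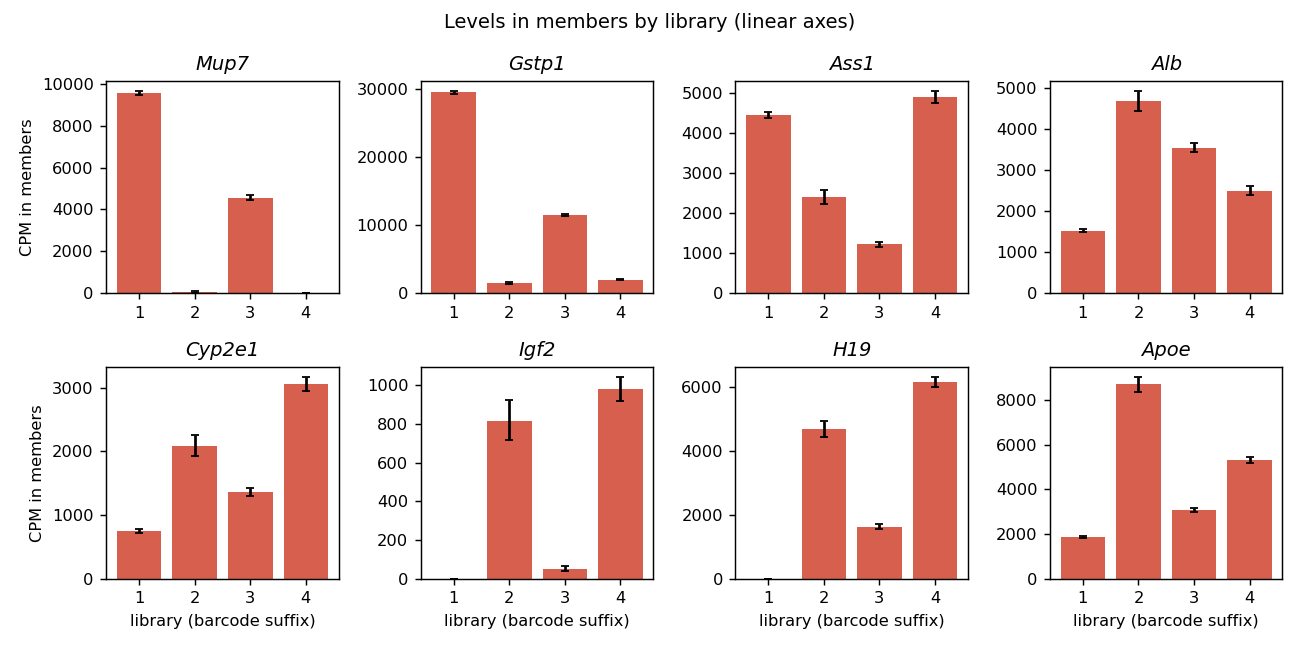
CPM of 8 genes in members of each library, on linear axes that start at 0, with exact 95% Poisson intervals. Mup7 and Gstp1 are high in libraries 1 and 3, while Igf2 and H19 are at 0 in library 1.

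The 3 markers were then compared with each other at 1000 UMIs per barcode, choosing on a pair and reading the gene left out. In library 3, barcodes with 2 or more UMIs of Hsd3b5 and Serpina1e (209 barcodes) had 153 CPM of Elovl3, against 48.9 in the 532 below, a log2 ratio of 1.65 (0.86 to 2.45). Hsd3b5, chosen on Elovl3 and Serpina1e, had 67.9 against 17.3 CPM, 1.97 (0.69 to 3.35), from 15 and 9 UMIs. In both cases the pair that chose the barcodes was mostly Serpina1e. Hsd3b5 and Elovl3 themselves were less clearly joined in library 3 members, with an Elovl3 UMI in 25% (8.66 to 49.1) of those with Hsd3b5 and 13.9% (10.3 to 18.2) of those without. In library 1, Serpina1e differed little with the other pair, at 13638 against 12729 CPM, 0.10 (0.05 to 0.15). Elovl3 there was at 568 against 397, 0.52 (-0.08 to 1.18), and Hsd3b5 at 194 against 65.2, 1.57 (0.014 to 3.86), from 306 and 3 UMIs. The lower sides of these ratios held only 58 barcodes for Elovl3 and 46 for Hsd3b5. Of the 46 library 1 barcodes with a marker sum of 0 to 1, 25 held 5 or more UMIs of biliary genes. The part of such barcodes in these ratios was not tested. An Elovl3 UMI was found in 43.2% (37.3 to 49.2) of library 1 members with Hsd3b5 and 41.1% (38.4 to 43.8) of those without.

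Within library 1 members, those with Hsd3b5 or Elovl3 had more RNA of central-zone genes. The 819 members with an Hsd3b5 or Elovl3 UMI among 1000 were compared with the 775 without, over list genes with 100 or more UMIs. All 6 pericentral genes read had intervals above 0, among them Oat, an ornithine aminotransferase, at 0.71 (0.49 to 0.93) log2, Cyp2e1, the ethanol-inducible P450, at 0.67 (0.48 to 0.86), and Rgn, regucalcin, at 0.54 (0.42 to 0.66). Of 9 periportal genes 3 had intervals below 0 and none above, with Pck1, a rate-limiting enzyme of gluconeogenesis, at -0.51 (-0.69 to -0.32) and Gls2, liver glutaminase, at -0.52 (-0.97 to -0.08). Mup20 was lower by the same reading, at -0.64 (-0.73 to -0.56), and Mup17 higher, at 0.64 (0.26 to 1.03). Serpina1e differed by 0.02 (-0.02 to 0.06). In library 3, with 64 members against 272, 1 of 5 pericentral genes had an interval above 0, Mup7 was at 0.62 (0.47 to 0.78) and H19 at -1.66 (-2.52 to -0.90).

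The reverse split, chosen after seeing the data, took the 412 library 1 members with 2 or more UMIs of Cyp2e1 and Oat among 1000 and the 867 with none. Elovl3 was higher in the first, 767 against 442 CPM, 0.80 (0.58 to 1.01) log2, and Serpina1e lower, 10536 against 14367, -0.45 (-0.5 to -0.40). Hsd3b5 lay between, at 0.38 (-0.01 to 0.76), an interval that includes 0. All 3 are genes of the rule, and among members with a low marker sum less of 1 gene requires more of another, so their opposite signs are a description. In library 1 only 15 of 1694 members lay at a sum of exactly 2. In library 3 206 of 581 did, and no reading of these genes is given there. The library 3 split had 117 members against 153. All 8 periportal genes read in library 1 and all 4 in library 3 had intervals below 0. The urinary protein copies divided in library 1: Mup17 was at 4.01 (3.39 to 4.69) and Mup11 at 1.75 (1.31 to 2.19), while Mup20 was at -1.42 (-1.54 to -1.29) and Mup21 at -1.29 (-2.0 to -0.63). Serpina12, vaspin, was lower with central genes in both libraries, at -1.73 (-2.08 to -1.39) and -1.72 (-2.44 to -1.05). The library 3 split also differed in other lists. The 1 fetal liver and carcinoma gene read was higher with central genes there, at 1.09. Of 12 plasma protein genes 7 had intervals above 0 and 2 below, against 0 and 5 of 17 in library 1. The part of such differences in the library 3 readings was not tested. Glul, held below 1% by the rule, was still higher with central genes in library 1, at 4.32 (3.8 to 4.88).

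Gene levels were also read along the marker sum of gated hepatocytes within the other limits, again at 1000 UMIs. In library 1 the 4 steps held 46 barcodes with a sum of 0 to 1, 69 with 2 to 3, 252 with 4 to 7 and 1254 with 8 or more. Library 3 held 517, 142 and 65, and under 20 at the top step. Gstp1 went from 11304 to 22928, 29361 and 32487 CPM in library 1, and from 7116 to 18908 and 17169 in library 3. Ass1, the urea cycle's argininosuccinate synthase, went from 1130.4 to 2869.6, 3809.5 and 4894 in library 1 and from 702 to 1785 in library 3. The lowest step of library 1 held other cells' markers, with 5 or more UMIs of 6 biliary genes in 25 of its 46 barcodes and an Epcam UMI in 24. Without such barcodes, left out after seeing the data, Gstp1 went from 22619 to 23358, 29629 and 32525 CPM and Ass1 from 2476 to 2925, 3855 and 4899. The first step was then close to the second, with overlapping intervals, and both genes were still higher at the upper steps. Nudt7 went from 3381 to 3522, with overlapping intervals. In library 3, with 20 such barcodes in the first step, the difference lay between the first step and the rest, Gstp1 going from 7342 to 19173 without them. H19 went the other way in library 3, from 2012 to 317 and 231 CPM, and Cyp2e1 from 1526 to 627 and 554. Mup7 went from 1602 to 5535 and 7631 in library 3, where leukocytes held it too.

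**Figure D4:**
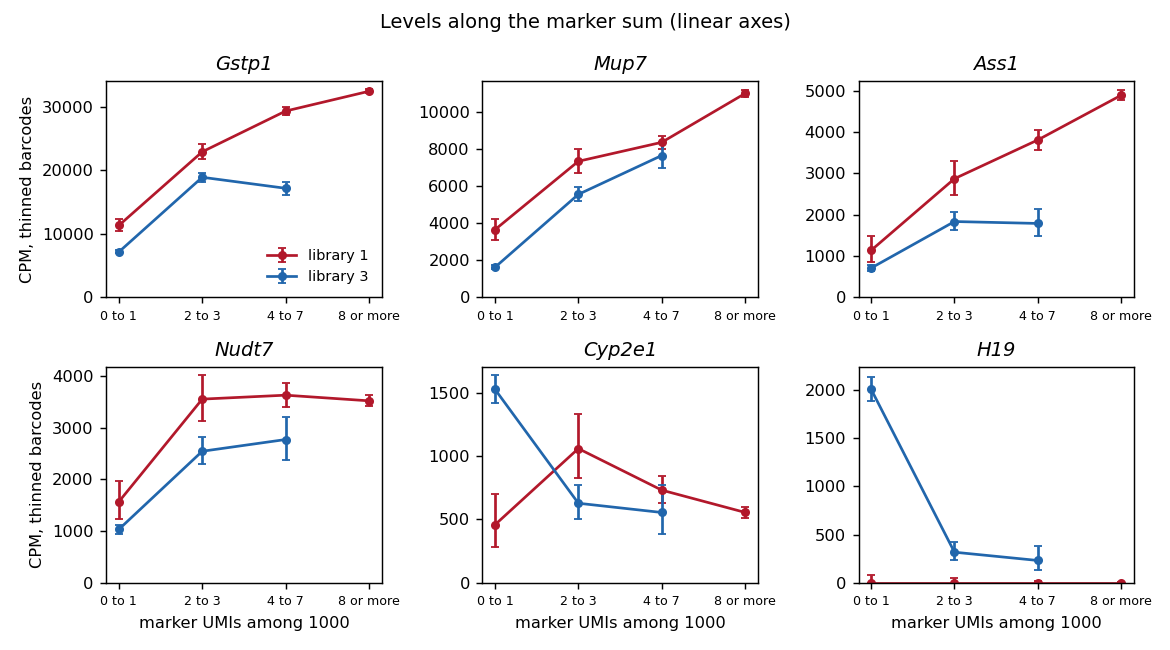
CPM of 6 genes in gated hepatocytes within the other limits, by the marker sum among 1000 UMIs, in libraries 1 and 3, on linear axes with exact 95% Poisson intervals. Gstp1, Mup7, Ass1 and Nudt7 are higher above the lowest step in both libraries, biliary-marker barcodes included, 25 of the 46 at the lowest step of library 1, and H19 of library 3 falls from 2012 to 231 CPM.

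Members were next set against hepatocytes of the periportal gate in libraries 1 and 3, which had 50 or more barcodes on both sides. A gene was called when its log2 ratio of CPM, averaged over the libraries with equal weight, passed 1.5-fold with the same sign in each, given 100 or more UMIs. Of 4587 genes read, 270 were higher in members (5.89%) and 248 lower (5.41%). All 15 pericentral genes read were higher, with a median log2 ratio of 1.82, and all 12 periportal genes read were lower, with a median of -1.13, against -0.02 over all genes. The gate uses 3 periportal genes and members were held below 2 UMIs of them. The direction of the periportal list is thus not independent of the choice of cells. The pericentral list is of the other end of the lobule, so its direction is not independent of that choice either. Cells of the gate had a median of 2058 UMIs in library 1 and 1743 in library 3. With barcodes thinned to 1000 UMIs, 6 of 6 pericentral genes were higher and 4 of 9 periportal genes lower. Without library 3 the counts over all genes were 169 and 118 of 3939 read, with 10 of 12 pericentral genes higher and 8 of 12 periportal genes lower. Without library 1 they were 192 and 190 of 1632 read, with 11 of 12 and 9 of 9.

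The genes higher in members included central-zone enzymes. Oat, the ornithine aminotransferase, was at 654 CPM in members and 62.7 in the other cells in library 1, and at 653 and 105 in library 3, log2 ratios of 3.38 (95% interval 3.10 to 3.68) and 2.64 (95% interval 2.14 to 3.18). Cyp2e1, the P450, was at 750.3 CPM in members and 128 in the other cells in library 1, and at 1362 and 268 in library 3, log2 ratios of 2.55 (95% interval 2.35 to 2.76) and 2.35 (95% interval 2.03 to 2.67). Both genes were higher in both libraries, by more than counting error. Other genes with a known central bias had log2 ratios in libraries 1 and 3 of 2.51 and 2.23 for Rgn, 1.43 and 2.32 for Cyp1a2, 0.91 and 2.86 for Gulo, which ends vitamin C synthesis, and 2.56 and 3.65 (95% interval 1.09 to 8.98, 1 UMI on the lower side) for Tbx3, a transcription factor downstream of Wnt. Cyp2c50, a drug-metabolising P450, was at 2.05 and 1.86, Lhpp, a histidine phosphatase, at 3.46 and 2.39, and Akr1c6, a 17-beta-hydroxysteroid dehydrogenase, at 1.01 and 1.26. Socs2, an inhibitor that growth hormone induces, was at 0.89 and 2.06 (95% interval 0.07 to 5.18, 2 UMIs on the lower side). Cib2, a calcium-binding protein, and Cyp2c68 and Cyp2c37, P450 genes, were among the 10 highest, with no UMI in library 3 cells of the periportal gate.

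The marker genes chose the members, and the periportal gate asks nothing of them, so their values here are a description. Elovl3 was at 590.2 against 328 CPM in library 1 and 131 against 58.6 in library 3. Serpina1e was at 12541 against 14986 and 2102 against 1929, and Hsd3b5 at 186 against 128 and 54.2 against 46.2. The urinary protein genes were mixed, 3 of 13 higher and 1 lower. Mup17 was at log2 ratios of 3.77 and 1.64, Mup15, outside the list, at 2.86 and 3.42 (95% interval 1.84 to 5.72, 3 UMIs on the lower side), Mup11 at 1.16 and 0.83, and Mup20 at -1.17 and -0.39. Without library 3, 6 of the 13 were lower.

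Genes lower in members than in the periportal gate included ammonia and glucose handling. Pck1, the gluconeogenic enzyme, was at 558 against 1484 CPM in library 1 and 558 against 2037 in library 3, -1.41 (95% interval -1.5 to -1.33) and -1.87 (95% interval -2.03 to -1.71). Gls2 was at -1.37 and -1.70, Cps1, which starts the urea cycle, at -0.51 and -1.41, Ass1 at -0.44 and -1.52, and Arg1, arginase, at -0.63 and -1.25. The differences were larger in library 3 than in library 1 for these 5 genes, without a test of that difference. The lowest call was Aldh1b1, a mitochondrial aldehyde dehydrogenase, at -2.91 and -3.51. Hsd17b13, a lipid droplet enzyme, was at -1.46 and -2.83. Of 23 plasma protein genes 8 were lower, Fga at -1.08 and -0.40 and Apob at -0.76 and -0.71, with none of 19 called after thinning. The count was 2 of 22 when barcodes rich in haemoglobin or biliary markers were left out. Acly, which makes acetyl-CoA for lipid synthesis, was at -0.68 and -1.38. Hba-a2 and Hbb-bs, haemoglobin genes, led the list of higher genes, but 2238 of 2249 haemoglobin UMIs of library 3 members lay in 3 barcodes.

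**Figure D5:**
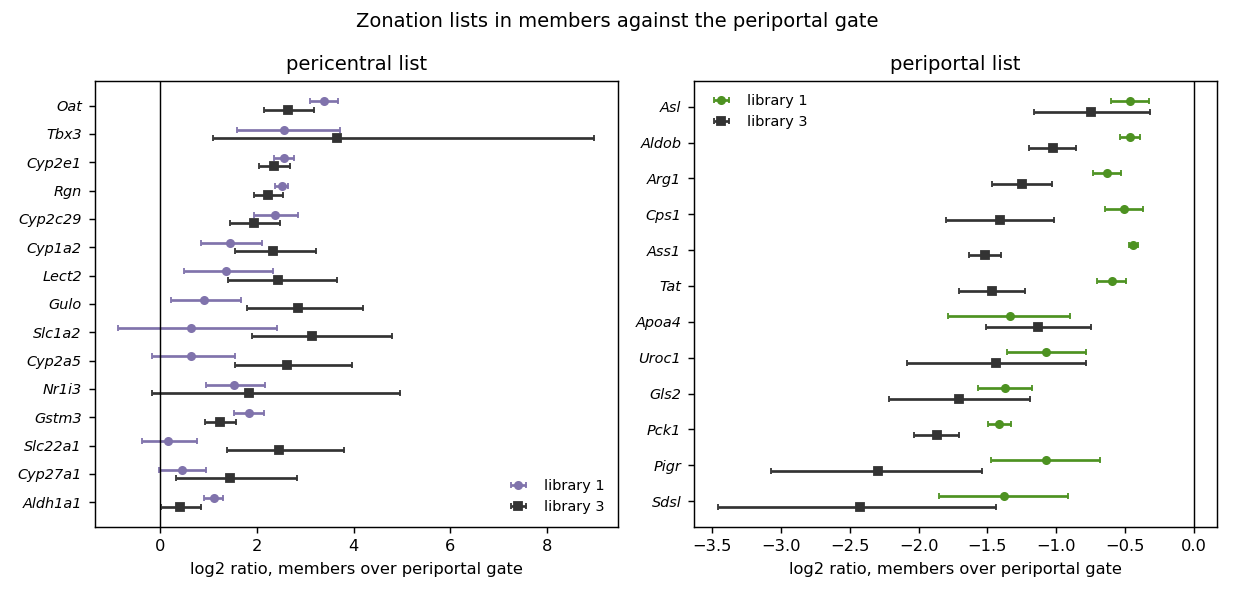
Log2 ratio of members over hepatocytes of the periportal gate for each pericentral and periportal list gene read, in libraries 1 and 3, with exact 95% intervals. All 15 pericentral genes lie above 0 on average and all 12 periportal genes below.

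Against marker-low hepatocytes only libraries 3 and 4 had 50 or more barcodes on both sides, since library 1 had 30 marker-low barcodes and library 2 had 21 members. Of 8344 genes read, 202 were higher in members (2.42%) and 1348 lower (16.2%), with a median log2 ratio of -0.13. The rule used this contrast, so these counts are a description. In all 9 of 11 urinary protein genes were higher and none lower (median 1.33), as were 6 of 17 plasma serpins (median 0.09), while 9 of 19 pericentral genes were lower and none higher (median -0.64). The median of the urinary protein genes was 1.65 with the 4 that had a side at 0 set to 3 counts there. Most of this rested on library 3. Without it, 0 of 3 urinary protein genes and 0 of 16 serpins were higher. The counts over all genes were then 514 and 1123 of 7818 genes read. Without library 4 they were 209 and 588 of 3202 genes read. In library 4, members had a median of 9456 UMIs and marker-low hepatocytes 3488, and the part of depth in that library's ratios was not tested.

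Mup7, a urinary protein, was at 4552 CPM in members and 1007 in marker-low cells in library 3, and at 6.38 and 3.13 in library 4, log2 ratios of 2.18 (95% interval 2.10 to 2.25) and 1.03 (95% interval -0.5 to 2.28). It was higher in library 3, where leukocytes held 2838 and the part of such background was not tested, and in library 4 the interval includes 0. Serpina12, vaspin, was at 309.6 CPM in members and 70.4 in marker-low cells in library 3, and at 11.7 and 3.46 in library 4, log2 ratios of 2.14 (95% interval 1.84 to 2.44) and 1.76 (95% interval 0.65 to 2.74). Arg1, arginase, was at 380.3 CPM in members and 97.3 in marker-low cells in library 3, and at 100.0 and 54.1 in library 4, log2 ratios of 1.97 (95% interval 1.71 to 2.22) and 0.89 (95% interval 0.56 to 1.20). These 2 genes were higher in both libraries. Other called genes had log2 ratios in libraries 3 and 4 of 1.93 and 1.5 for Gls2, 1.52 and 0.30 for Ass1, 1.70 and 0.32 for Nudt7, 1.66 and 0.42 for Selenbp2, 1.46 and 0.17 for Gstp1, 0.91 and 1.30 for Hamp, the iron hormone hepcidin, and 2.08 and 0.41 for Mt1. Enho, which encodes the secreted peptide adropin, was at 2.50 and 1.47 (95% interval -0.97 to 3.31, 3 UMIs on the lower side) and Wfdc21, a secreted whey acidic protein, at 1.97 and 1.12. Among the Serpina1 copies, Serpina1b was at 0.95 and 0.37, Serpina1c at 1.25 and 0.42 and Serpina1d at 1.38 and 0.29, and Serpina1a was not called at 0.48 and -0.03. Igf1 was at 1.29 and 0.16, with 1 of 12 growth hormone genes higher and 2 lower.

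Lower in members were immediate-early and stress genes, 8 of 15 (median -0.92), which tissue dissociation is known to induce. Egr1 was at 45.0 against 232 CPM in library 3 and 43.6 against 78.9 in library 4, -2.37 (95% interval -2.82 to -1.94) and -0.86 (95% interval -1.34 to -0.40), and Fos at -2.04 and -0.30. Without library 3 the list had 3 of 14 lower. The same list went the other way elsewhere, with 5 of 11 higher and none lower against the periportal gate, Egr1, Jun and Fos among them, and 6 of 13 higher and none lower against the Glul gate. Without haemoglobin-rich and biliary-marker barcodes those counts were 1 of 7 and 0 of 12. Against the periportal gate, Fos was then at -0.016 log2, and Egr1 was at -0.20 with barcodes thinned to 1000 UMIs. The part of the preparation in these comparisons was not tested. Nupr1, a stress-induced chromatin protein, was at -4.53 and -1.12, the imprinted RNA Kcnq1ot1 at -3.32 and -1.82 and the imprinted RNA Meg3 at -2.27 and -1.91. Of the pericentral genes, Slc1a2, a glutamate transporter, was at -0.92 and -2.82, Oat at -0.41 and -1.02 and Cyp2a5, a coumarin hydroxylase, at -0.46 and -1.87, and Cyp2e1 was not called at -0.10 and -0.48. With depth matched at 1000 UMIs per barcode, Cyp2e1 of library 3 was lower above the lowest marker step, as given above. Of 15 genes of fatty acid synthesis and elongation 5 were lower, Elovl5 at -0.88 and -1.0. Of 19 proliferation genes only Mki67 was called, lower at -0.76 and -1.24. The libraries differed in that list, with 10 of 19 higher and 1 lower in library 4 alone and 11 of 12 lower in library 3 alone. Against the periportal gate 4 of 5 were higher, and against the Glul gate 4 of 15. H19 was not called and differed in sign, at -0.48 (95% interval -0.56 to -0.40) in library 3 and 0.40 (95% interval 0.36 to 0.44) in library 4. These are ratios of summed UMIs, in which deep barcodes weigh most, and library 3 members ranged from 500 to 33844 UMIs. Read at 1000 UMIs per barcode, H19 of library 3 fell more steeply above the lowest marker step, as given above.

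Choosing on Hsd3b5 and Elovl3 without Serpina1e turned part of this picture. That choice left 706 members, and only library 1 had enough barcodes on both sides, where the comparison cells were mostly Serpina1e-positive. There 99 of 3317 genes read were higher and 180 lower. Of the lists, 9 of 10 pericentral genes were higher and none lower, and 3 of 13 urinary protein genes were higher and 1 lower. The difference between this library and libraries 3 and 4 cannot be told apart from the difference between the gates.

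Set against hepatocytes of the Glul gate (1% or more of UMIs from glutamine synthetase, with the same serum amyloid and Afp limits) in libraries 3 and 4, 649 of 7492 genes were higher in members (8.66%) and 932 lower (12.4%). Without library 3 these were 1458 and 804 of 7230, and without library 4 134 and 310 of 1648. Of the lists, 11 of 18 pericentral genes were lower in members and none higher (median -0.71, all genes -0.12). Glul is itself a gene of the central zone, and members were held below 1% of it. The directions of central and portal genes here are thus not independent of the choice of cells. Higher were 10 of 11 urinary protein genes (median 2.47, or 2.50 with zeros at 3 counts), 9 of 17 serpins and 9 of 13 acute phase genes, the urinary protein count falling to 1 of 2 without library 3. Markers of other cells moved with this comparison. All 3 cholangiocyte markers read were higher in members, Clu at 0.52 and 2.11 and Tm4sf4 at 0.91 and 1.55, Spp1, the highest call, had 292 UMIs in members and 1 in the Glul gate, and Cd74, an antigen-presentation gene, was at 2.78 (95% interval 0.85 to 5.86, 2 UMIs on the lower side) and 2.83. Their part in the other differences was not tested, and without haemoglobin-rich and biliary-marker barcodes 542 of 7313 genes were higher and 846 lower. Arg1 was at 380.3 CPM in members and 10 in Glul-gate cells in library 3, and at 100.0 and 16.7 in library 4, log2 ratios of 5.24 (95% interval 3.69 to 7.53) and 2.58 (95% interval 2.22 to 2.93). Oat was at 653 CPM in members and 3365 in Glul-gate cells in library 3, and at 2269.5 and 15445 in library 4, log2 ratios of -2.37 (95% interval -2.51 to -2.23) and -2.77 (95% interval -2.83 to -2.71). Arg1, of the portal side, was higher in members and Oat, of the central side, lower, in both libraries.
Log2 ratios in libraries 3 and 4 were 3.32 and 3.74 for Hamp, 4.47 and 1.61 for Mt1, 4.53 and 2.17 for Serpina12, 3.26 and 2.70 for Mup14 and 2.78 and 1.37 for Cps1. Cyp2e1 was at -0.78 and -1.04, Nkd1, a feedback target of Wnt and beta-catenin signalling, at -1.82 and -5.20 (95% interval -8.24 to -3.34, 2 UMIs on the lower side), and Sp5, another such target, at -2.23 and -3.29. In all 5 of 14 fatty acid oxidation genes were lower, Ehhadh, a peroxisomal enzyme, at -0.97 and -0.52. H19 was at 0.93 and 1.87 and Igf2 at 0.65 and 2.02, both higher in members, a direction that turned when the marker sum had to reach 3.

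Markers of other cells were present among members. In members of libraries 1 to 4 the 8 macrophage markers summed to 85.8, 6.72, 127 and 3.19 CPM and the 8 endothelial markers to 34.2, 0, 25.7 and 7.44. The endothelial genes were all at 0 in library 2. The 6 erythroid markers summed to 128, 13.4, 2132 and 7.44 CPM, highest in library 3. The 7 cholangiocyte markers, of which hepatocytes also express some, summed to 1109, 4113, 679.8 and 1104 CPM, and Epcam was found in 11 of 1694, 2 of 21, 2 of 581 and 1 of 70 members. Members with 5 or more UMIs of the 6 biliary genes were 11 of 1694, 9 of 21, 5 of 581 and 10 of 70. Depth was not matched in these counts, and members of libraries 2 and 4 were the deepest. Among marker-low barcodes Epcam was found in 21 of 30 in library 1 and 14 of 677 in library 3, so those of library 1 carried a biliary marker more often than not. Without haemoglobin-rich and biliary-marker barcodes the marker-low comparison gave 267 higher and 1218 lower of 7811 genes read.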

How the data were processed

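The deposited table is 1 matrix of UMI counts, 31053 genes by 38072 barcodes, made with Cell Ranger 6.0.1, as per the file headers. The labels name the 10x 3′ v.3 kit and, per the submitters' processing notes, build mm9. Counting options are not stated. The UMI counts were used as deposited by the authors, with no row or barcode added. The 4 suffixes were handled as 4 unlabelled libraries and no group of samples was compared. Counts were summed per library and cell group and scaled to CPM. Ratios within a library had 0.5 counts added on both sides and were averaged with equal weight over libraries with 50 or more barcodes on both sides. A call needed 1.5-fold, 1 sign and 100 UMIs. No ratio has a replicate check. Poisson intervals for levels, conditional binomial intervals for ratios and Clopper-Pearson intervals for shares are at 95%, and a count of 0 allows 3 counts.

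Named genes were the markers and the genes of the rule, the called genes of each of 30 lists (up to 8 a list), and the 10 highest and 10 lowest calls, and other list genes are given as values. All 377 list genes were in the matrix. The members and the lists were chosen with earlier results of these data known. Scrublet in scanpy 1.11.5 marked 2 of 36150 barcodes as doublets and so had not worked. Leaving out scores over 0.25 was an alternative. Thinning drew 1000 UMIs per barcode without replacement. The comparison was tested on simulated data. Python 3.11.15, numpy 2.4.6, scipy 1.17.1 and pandas 2.3.3 were used. Alternatives were the mitochondrial limit, depth, marker sum and marker pair, lineage limit, thinning, doublet score, library left out, pooling, UMI minimum and fold. Those on the number of barcodes and on other cells were added after seeing the data.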

Additional observations from a re-analysis of the deposited data

How the results depend on the processing

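The share of members among gated hepatocytes was 14.7%. With 1 library left out at a time it ranged from 4.9% to 21%. Over the same fits, genes higher and lower ranged from 202 to 514 and 588 to 1348 against marker-low hepatocytes, and 169 to 270 and 118 to 248 against the periportal gate, and 134 to 1458 and 310 to 932 against the Glul gate. The genes read ranged from 3202 to 8344, 1632 to 4587 and 1648 to 7492 in these comparisons, so the counts are not shares. With 2000 or more UMIs per cell the values were 8.31% for the share, 1445 for genes higher than in the Glul gate. With a marker sum of 3 or more the values were 13.1% for the share, 623 for genes lower than in marker-low hepatocytes, 126 for genes higher than in the Glul gate, 264 for genes lower than in the Glul gate. With a marker sum of 5 or more the values were 11.4% for the share, 609 for genes lower than in marker-low hepatocytes, 90 for genes higher than in the Glul gate, 156 for genes lower than in the Glul gate. With a gate on Hsd3b5+Elovl3 the values were 4.39% for the share, 99 for genes higher than in marker-low hepatocytes, 180 for genes lower than in marker-low hepatocytes, 179 for genes higher than in the periportal gate, 109 for genes lower than in the periportal gate. With barcodes thinned to 1000 UMIs the values were 16.7% for the share, 142 for genes lower than in marker-low hepatocytes, 85 for genes higher than in the periportal gate, 77 for genes lower than in the periportal gate. With counts pooled over libraries the values were 130 for genes lower than in the periportal gate, 1201 for genes higher than in the Glul gate. With 20 or more UMIs over both sides the values were 472 for genes higher than in marker-low hepatocytes, 2188 for genes lower than in marker-low hepatocytes, 872 for genes higher than in the periportal gate, 796 for genes lower than in the periportal gate, 1284 for genes higher than in the Glul gate. With 2-fold in place of 1.5-fold the values were 40 for genes higher than in marker-low hepatocytes, 461 for genes lower than in marker-low hepatocytes, 89 for genes higher than in the periportal gate, 64 for genes lower than in the periportal gate, 289 for genes higher than in the Glul gate, 256 for genes lower than in the Glul gate. With 20 or more cells on both sides the values were 384 for genes higher than in the Glul gate. With haemoglobin-rich and biliary-marker barcodes left out the values were 15.4% for the share. The genes read also changed. Against marker-low hepatocytes they were 2923 and 2583 with marker sums of 3 and 5, 3317 with the Hsd3b5+Elovl3 gate and 935 after thinning. Against the periportal gate they were 3065 with the Hsd3b5+Elovl3 gate and 1689 after thinning. Against the Glul gate they were 7077 with 2000 or more UMIs, and 1314 and 904 with marker sums of 3 and 5. At 20 or more UMIs over both sides they were 11284, 8568 and 10434 in that order. Of 1417 values of named genes under alternatives, 1199 kept their state as called or not called, 180 lost the call and 12 gained one. The remaining 26 were of genes called in the main comparison and turned sign. Sign was followed for genes called there only, so turns of uncalled genes are not counted. The gate on Hsd3b5+Elovl3, which compares library 1 only, turned Arg1 (-0.29), Cyp2a5 (2.56), Gls2 (-0.70), Gstp1 (-0.22), Igf1 (-0.12), Mt1 (-0.92), Mup14 (-0.39), Mup3 (-0.38), Mup7 (-0.25), Nupr1 (1.66), Oat (1.70), Orm1 (-0.21), Serpina12 (-0.74), Serpina1c (-0.046), Slc1a2 (5.21) against marker-low hepatocytes, and Egr1 (-0.36), Fos (-2.06) against the periportal gate. Others that turned were H19 at a marker sum of 3 (-0.11, Glul gate), Igf2 at a marker sum of 3 (-1.16, Glul gate), Igf2 at a marker sum of 5 (-0.69, Glul gate), Egr1 after thinning (-0.20, periportal gate), Hsd17b13 after thinning (0.017, periportal gate), Ass1 with pooled counts (-0.26, marker-low), H19 with 20 barcodes a side (-0.19, Glul gate), Igf2 with 20 barcodes a side (-0.28, Glul gate), Fos without haemoglobin-rich and biliary-marker barcodes (-0.016, periportal gate). The causes were not tested, except that fewer libraries and genes enter some fits by construction. The Hsd3b5+Elovl3 gate and the thinned barcodes gave no Glul-gate comparison. No paired analysis was possible because the labels pair no library with a sample. Depth limits Hsd3b5 and Elovl3, each with under 1 UMI per member on average, and the number of members, 21, limits library 2.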

Other observations

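Relatives of Hsd3b5 differed in how they were distributed over the libraries. Hsd3b2 was at 14.4, 0, 8.27 and 0 CPM, Hsd3b3 at 73.1, 57.1, 61.6 and 86.1, and the reductase Akr1c6 stood at 2914, 940.2, 1991 and 2365. Among the growth hormone genes, Stat5b, the main signal transducer, was at 19.9, 16.8, 12.9 and 18.1 CPM and Cish, an inhibitor that STAT5 induces, at 0.552, 3.36, 4.59 and 3.19. Of the liver transcription factors, Hnf4a was at 115, 70.5, 109 and 69.1, Cebpa at 129, 121, 113 and 153 and Nr5a2 at 42.2, 40.3, 33.1 and 34.0 CPM. Onecut1 was at 24.0, 6.72, 18.4 and 7.44 CPM. Nr1d1, a repressor of the circadian clock, was at 33.4, 0, 20.2 and 13.8 CPM.

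In glycolysis, Gapdh was highest in library 1, at 2551, 1293, 1089.6 and 1431 CPM, and Pkm, the pyruvate kinase of fetal and proliferating cells, lowest there, at 2.76, 134, 22.0 and 42.5. Of fatty acid oxidation, Acadm, an acyl-CoA dehydrogenase, was at 433, 413, 284 and 466 CPM. Some bile acid genes were lowest in library 1, Cyp7a1, the first enzyme of the main route, at 4.14, 97.4, 23.0 and 73.4 and Abcb11, the bile salt export pump, at 12.1, 121, 44.1 and 63.8 CPM. Lcn2, an acute phase iron-binding protein, was at 8.56, 803, 142 and 262, and Fgf21, a stress hormone of liver, at 0.552, 60.4, 0 and 35.1. The part of depth and of background RNA in these values was not tested.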
